A study of Homo sapiens with 17 samples.

Results

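The mRNA of HEK293 cells, a human embryonic kidney line, was sequenced 72 h after electroporation with 1 of 2 ribonucleoproteins. Cas9 carried the sgIntron guide to an intron of JAK2 and cuts both DNA strands there, while dCas9 carried the same guide and binds without cutting, so the controls also received protein, guide RNA and electroporation. The guides were transcribed in vitro, and each replicate was a plate onto which several electroporations had been pooled. Chosen by nuclease, time and library type in the labels, 4 libraries were compared, Cas9 a and b and dCas9 a and b, of 17 in the series as used here, which also holds ribosome footprints and a 36 h time point with synthetic guides. The study's methods count each plate as a biological replicate, so p-values measure the spread between 2 plates a group.

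A nuclease break is sensed by kinases that start repair and can halt the cell cycle. Messenger RNA levels report synthesis and decay together, while ribosome footprints count ribosomes on a message. Splicing removes introns through the spliceosome, whose core is built from small nuclear RNPs, and SR proteins and hnRNPs choose its sites. Chromatin remodellers such as SWI/SNF move nucleosomes with energy from ATP.

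Total counts ran from 33040655 to 42826187 per library over 1 transcript a gene, and levels are given as CPM, counts scaled to the total of the library. Of 16799 genes with any count, 13175 had a mean of at least 20 and were tested. All 8 HEK293 markers had counts, with LIN28B at 59.4 to 64.5 CPM. Their summed level was 186.6 to 197.2 CPM with Cas9 and 182.7 to 200.1 with dCas9, although NEFH reached at most 0.43 CPM and PAX2 at most 0.32, and of these markers NEFM fell. Markers of other cells summed to at most 7.69 CPM in any library, 14 of 17 had a count, and GATA1, CDH5 and PTPRC were at 0 in at least 2 libraries. COL1A1 and TAL1 passed the count minimum. COL1A1 stood at 3.45 to 4.72 CPM, near the HEK293 marker KRT8 at 4.48 to 5.00, and TAL1 at 0.735 to 1.435. JAK2 itself stood at 7.45 and 7.75 CPM with Cas9 and at 6.65 and 11.02 with dCas9, and the groups overlapped. Because the cut lies in an intron, its mRNA level does not check the labels.

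At a false discovery rate of 0.1 in edgeR's quasi-likelihood test, 277 genes fell (2.1% of those tested) and 2 rose (0.0152%). The decreased genes were led by RPS16, NUDC, MRPL12 and LSM10. They included members of 3 lists that were drawn up after the values had been seen. These were 14 of 98 spliceosome genes (14.29%), 14 of 67 of chromatin remodelling (20.9%) and 8 of 88 of ribosome assembly (9.091%). COX6C, a subunit of cytochrome c oxidase, and RPL9, a protein of the large ribosomal subunit, were the increased ones. The median decrease was 1.62-fold, 219 of the 277 were at least 1.5-fold lower and 25 at least 2-fold lower. Over all tested genes, 391 were at least 1.5-fold lower and 96 at least 1.5-fold higher. At 2-fold these counts were 37 and 4. The summed level of the 277 was 21231.0 and 25198.9 CPM with Cas9 and 35230.5 and 38631.5 with dCas9. These genes were selected as lower in the same libraries, so that separation was built in.

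The number of calls depended on the libraries. It was 6 without Cas9 replicate a, 223 without Cas9 replicate b, 698 without dCas9 replicate a and 3089 without dCas9 replicate b, where 1852 rose. Scaling that removed the trend of each library with coding GC (GC offsets, below) gave 1156 higher (8.77%) and 1431 lower (10.9%) genes in place of 2 and 277, that is 19.6% in place of 2.12%, and all 279 calls remained among them in the same direction. Each of the 277 was lower in both Cas9 libraries than in both dCas9 libraries, which held for 24.1% of the genes tested. For these genes that order left little room for a change of direction under the scaling, so the kept direction is no separate check. Within the Cas9 pair, replicate a was below replicate b for 254 of the 277 (91.7%) against 49.64% of all genes, so the decrease was deeper in replicate a, with median log2 deviations from the 4-library mean of -0.47 and -0.23.

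Coding sequences are shown for 7 of the changed genes because base composition divided the libraries (below). RPS16, MRPL12 and CCDC124 are decreased genes of high GC, HNRNPH3, UBE2B and UBE2K are decreased genes of low GC, and RPL9 is an increased gene of low GC. Each stretch is the first 90 in-frame bases of the longest coding exon, read 5′ to 3′ on the coding strand of hg38, and capitals mark G or C at the third base of a codon.
RPS16, chr19:39433327-39433416, minus strand: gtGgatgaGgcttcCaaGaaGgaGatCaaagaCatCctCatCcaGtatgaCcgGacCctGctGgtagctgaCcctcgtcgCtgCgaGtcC
MRPL12, chr17:81704245-81704334, plus strand: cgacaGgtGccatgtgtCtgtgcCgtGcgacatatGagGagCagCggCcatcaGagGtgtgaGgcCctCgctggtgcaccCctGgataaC
CCDC124, chr19:17943509-17943598, plus strand: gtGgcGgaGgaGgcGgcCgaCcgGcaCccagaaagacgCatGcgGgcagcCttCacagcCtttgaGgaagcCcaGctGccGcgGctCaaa
HNRNPH3, chr10:68338504-68338593, plus strand: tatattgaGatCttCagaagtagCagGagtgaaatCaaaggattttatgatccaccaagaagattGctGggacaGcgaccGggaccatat
UBE2B, chr5:134390225-134390314, plus strand: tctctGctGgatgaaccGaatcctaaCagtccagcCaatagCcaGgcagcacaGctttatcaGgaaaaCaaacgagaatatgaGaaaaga
UBE2K, chr4:39777682-39777771, plus strand: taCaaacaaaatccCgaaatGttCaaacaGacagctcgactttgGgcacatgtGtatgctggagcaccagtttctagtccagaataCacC
RPL9, chr4:39456449-39456538, minus strand: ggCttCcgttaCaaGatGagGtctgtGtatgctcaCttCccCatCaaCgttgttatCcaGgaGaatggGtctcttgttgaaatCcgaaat
In these stretches, 22 of 30 codons ended in G or C in RPS16 and in CCDC124, 18 in MRPL12, 17 in RPL9, 11 in UBE2B, 10 in HNRNPH3 and 9 in UBE2K. Over the whole coding sequence, GC was 64.6% in CCDC124, 60.8% in MRPL12, 57.1% in RPS16, 46.1% in HNRNPH3, 43.6% in RPL9, 42.7% in UBE2K and 41.9% in UBE2B.

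RPS16 (chr19:39433137-39435949), a protein of the small ribosomal subunit, stood at 82.9 and 81.5 CPM with Cas9 and at 250.5 and 388.2 with dCas9. It fell 3.89-fold (log2 change -1.96 ± 0.18 SE, adjusted p = 0.00106), the largest decrease among the genes tested. Its footprints were 756.3 and 802.9 CPM with Cas9 and 816.5 and 843.3 with dCas9. At 36 h its mRNA was between 1086 and 1298.5 CPM over 5 libraries, and both dCas9 libraries of 72 h were also below that range. The 36 h libraries were normalised in a separate table and, by the study's methods, aligned and annotated differently.

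NUDC (chr1:26900238-26946871), a chaperone cofactor of dynein, stood at 64.6 and 85.7 CPM with Cas9 and at 155.6 and 176.3 with dCas9, and fell 2.21-fold (adjusted p = 0.0238). TCF7L2, a transcription factor of Wnt signalling, stood at 4.47 and 5.19 against 10.8 in both dCas9 libraries. SEPHS2, which makes the selenium donor for selenoproteins, stood at 35.1 and 51.6 against 87.5 and 102.8. The groups did not overlap for any of these genes, and the Cas9 replicate labelled a was the lowest library for each.
TRAPPC1, a subunit of a tethering complex for vesicles, stood at 17.3 and 22.1 against 40.1 in both dCas9 libraries, and CCDC124, a ribosome-associated protein, at 35.4 and 41.9 against 71.0 and 76.4. Among the 10 leading decreased genes, adjusted p for those after RPS16 was 0.0238 or 0.0243.

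**Figure D1:**
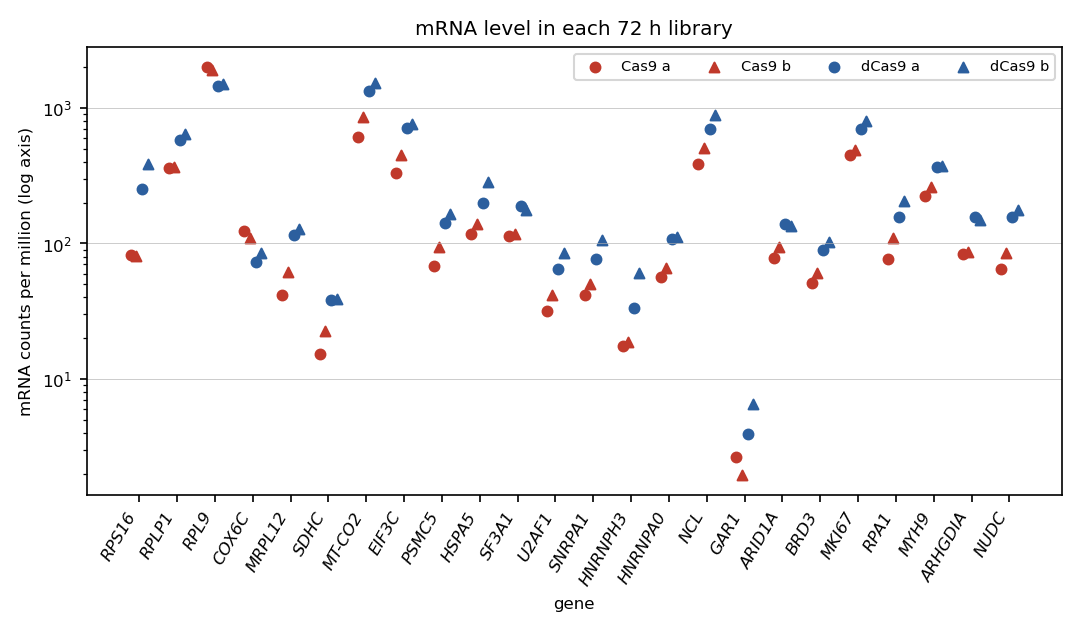
The plot of mRNA levels gives CPM on a log axis for 24 genes in the 4 libraries of 72 h, with red for Cas9, blue for dCas9, circles for replicate a and triangles for replicate b. RPL9 and COX6C are higher in both Cas9 libraries and the other 22 genes are lower in both, most of them lowest in Cas9 replicate a.

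Of 84 tested genes of the cytosolic ribosome, 68 had a higher level with Cas9 and 16 a lower one, where 52.8% of all genes had a higher one. The median log2 change was 0.19 against 0.018 over all genes, and 1 gene rose and 3 fell (3.571% against 2.1%). This list holds short genes, with a median coding length of 453 nt against 1431 nt over all genes, and the part of length was not tested. RPL9 stood at 1991 and 1899 CPM with Cas9 and at 1463 and 1495 with dCas9 (1.32-fold, log2 change 0.40 ± 0.10 SE, adjusted p = 0.0986). It did not pass with DESeq2, the method of the study. The 3 decreased members were RPS16, RPL28 and RPLP1, the last an acidic stalk protein at 357.9 and 366.7 against 575.3 and 640.1 CPM. RPL28 stood at 177.3 and 284.0 against 534.4 and 461.9 CPM. RPS27A, which the study followed, stood at 1366 and 1397 against 1163 and 1212 CPM and did not pass the test (log2 change 0.22 ± 0.10 SE, adjusted p = 0.377). Single pairs of libraries gave the list medians between 0.10 and 0.27, and near-identical processed copies of ribosomal protein genes make their single values uncertain.

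Mitochondrial ribosomal proteins and the nuclear-encoded respiratory chain moved on the same side. The former were higher for 62 of 78 genes with a median of 0.14, and the latter for 66 of 79 with a median of 0.16. Both lists hold short genes, with median coding lengths of 585 and 411 nt against 1431 nt, and the part of length was not tested. MRPL12, a stalk protein of the mitochondrial ribosome, went the other way at 41.8 and 61.4 CPM with Cas9 against 115.3 and 127.1, a 2.35-fold fall, as did MRPL4. SDHC, a membrane anchor of succinate dehydrogenase, fell from 38.4 and 38.9 CPM with dCas9 to 15.2 and 22.8. COX6C stood at 124.3 and 109.4 CPM with Cas9 and at 73.2 and 84.6 with dCas9 (log2 change 0.57 ± 0.13 SE, adjusted p = 0.0739). Of the mitochondrial ribosomal proteins 2 fell (2.564%) and of the respiratory chain genes 1 (1.266%), against 2.1% of all genes.

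Genes of the mitochondrial DNA went opposite to the nuclear-encoded lists in mRNA. Of 5 with counts, all were lower by the fit with a median of -0.55, MT-CO2 and MT-ATP6 fell, and 3 were lower in both Cas9 libraries than in both controls. MT-CO2, a core subunit of cytochrome c oxidase, stood at 615.4 and 859.1 CPM with Cas9 and at 1337 and 1518 with dCas9 (adjusted p = 0.0243). The share of all counts on these genes was 0.0995% and 0.137% with Cas9 and 0.186% and 0.225% with dCas9, and the median of the list ranged from -1.03 to -0.011 over single pairs. In footprints of 72 h the same genes were higher with Cas9, with a median of 0.42, and MT-CO2, MT-ATP6 and MT-ND5 passed the test there. MT-ATP6 footprints were 368.1 and 363.0 CPM with Cas9 and 279.6 and 240.9 with dCas9.

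Proteins that bind pre-mRNA and splicing factors were lower in part. Of 37 SR proteins and hnRNPs, 7 fell (18.92% against 2.1%), 21 were lower in both Cas9 libraries than in either control against 24.1% of genes, and the median was -0.17, or -0.084 with GC offsets. HNRNPH3 stood at 17.5 and 18.7 CPM with Cas9 and at 33.3 and 60.8 with dCas9 (log2 change -1.38 ± 0.22 SE, adjusted p = 0.0243), so the dCas9 libraries differed between themselves as well. HNRNPA0 was tighter at 56.5 and 65.8 against 107.1 and 112.1. HNRNPM and HNRNPA2B1, which bind pre-mRNA and regulate exon choice, had log2 changes of -0.87 and -0.98 and passed the test. The members HNRNPA1 and HNRNPA1L2 share sequence and are uncertain as separate calls.

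A list of spliceosome subunits and cofactors, drawn up after the values had been seen, held 14 decreased genes of 98 (14.29% against 2.1%) with a median of -0.060. SF3A1, a subunit of the U2 particle, stood at 113.0 and 116.6 CPM with Cas9 and at 189.8 and 177.6 with dCas9 (adjusted p = 0.0255). PRPF8, the protein at the catalytic centre, stood at 752.9 and 891.8 against 1217 and 1248, and fell by 0.58 on the log2 scale. SRRM2, a matrix protein of nuclear speckles, fell by 0.60 on the log2 scale. U2AF1, which reads the end of the intron, stood at 31.8 and 41.6 against 65.2 and 84.4, with counts identical to those of a second annotated copy, so the pair cannot be told apart. Outside the 14 decreased genes no member passed in either direction, and 41 of the 98 were higher with Cas9. Among 24 Sm and LSm proteins, LSM10, of the U7 particle for histone mRNA, and SNRPA1, of the U2 particle, fell while the median was 0.10.

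In a list of chromatin remodelling ATPases and their partners, likewise drawn up after the values had been seen, 14 of 67 fell (20.9% against 2.1% of all genes), 40 were lower in every pair of libraries against 24.1% of all genes, and the median was -0.23. ARID1A, a DNA-binding subunit of SWI/SNF, stood at 78.7 and 93.7 CPM with Cas9 and at 140.2 and 134.1 with dCas9 (1.59-fold, adjusted p = 0.0367). SMARCA4, the ATPase of that complex, stood at 276.1 and 280.3 against 397.3 and 384.4. EP400 and BRD3, an ATPase of the TIP60 complex and a reader of acetylated histones, fell by 0.63 and 0.78 on the log2 scale. Enzymes that methylate or acetylate histones showed a median of -0.15 over 58 genes, 32 of them lower in every pair of libraries (again against 24.1%), and DOT1L, the methylase of histone H3 within the nucleosome core, was the 1 that fell (1.724% against 2.1%). Both lists hold long genes, with a median coding length of 3262 nt for the remodelling list and 3380 nt for the enzymes against 1431 nt over all genes, and the part of length was not tested. Single pairs gave the remodelling list medians between -0.29 and -0.13 and the enzymes between -0.21 and -0.11, below 0 with either dCas9 replicate.

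HOX transcription factors, which set body position, had a median of -0.23, and 16 of 33 were lower in every pair of libraries, against 24.1% of all tested genes. None passed edgeR's test or DESeq2, and 9 were lower at an unadjusted p under 0.05, against 9.5% of all genes. The median of the HOX list ran from -0.32 to -0.053 over single pairs. It was -0.17 with GC offsets and -0.12 without dCas9 replicate a, and median coding GC was 62.32% against 52.22% over all genes. Protocadherins and cadherins had a median of -0.19 over 61 genes with 0 calls in edgeR and in DESeq2 and 1 lower at an unadjusted p under 0.05, but single pairs ranged from -0.36 to 0.0041. Zinc finger proteins had a median of 0.16 over 454 genes, 333 of them higher. That median was between 0.015 and 0.27 over single pairs, and 0.096 with GC offsets. Of the 454, 3 fell (0.6608% against 2.1% of all genes) and none rose.

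Ribosome assembly factors of the nucleolus, another list made after the values were seen, had 8 of 88 decreased (9.091% against 2.1%) around a median of 0.024. NCL, the nucleolar protein nucleolin, stood at 388.7 and 502.1 CPM with Cas9 and at 694.9 and 894.0 with dCas9 (1.78-fold, adjusted p = 0.0258). FBL, the methylase of ribosomal RNA, and TCOF1, a cofactor of ribosomal DNA transcription, fell by 0.61 and 0.50 on the log2 scale. GAR1, of the pseudouridine-forming particle, was scarce at 2.68 and 1.97 against 3.915 and 6.59 CPM. Translation factors had 2 calls among 66 (3.03% against 2.1% of all genes), EIF3C and EIF3CL. These are near-identical copies that count as 1, with EIF3C at 331.0 and 450.7 against 715.9 and 762.6 CPM.

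Among genes of cell division, the median was 0.12 over 43 replication genes and 0.13 over 30 mitotic kinases, cyclins and checkpoint genes, or 0.098 and 0.058 with GC offsets. It was -0.041 over 61 kinesins and dyneins, 34 of which had a lower level with Cas9. RPA1, which coats single-stranded DNA, stood at 77.4 and 110.1 CPM with Cas9 and at 155.8 and 204.2 with dCas9 (adjusted p = 0.0285). MKI67, the proliferation antigen Ki-67, stood at 448.0 and 493.3 against 701.3 and 799.5, and PLK1, a kinase of mitotic entry, at 125.8 and 133.9 against 196.1 and 177.0. Both fell, as did the cohesin subunit SMC1A and the centrosome scaffold PCNT. Of the replication list 1 of 43 fell (2.326%), and of the mitotic list 2 of 30 (6.667%), against 2.1% of all genes. For kinetochore, cohesin and condensin it was 1 of 49 (2.041%), and for the centrosome 1 of 44 (2.273%). Medians of the kinetochore and the centrosome lists changed sign with the dCas9 library, from -0.11 to 0.33 and from -0.16 to 0.34, and with GC offsets they were -0.0069 and -0.033.

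Neither CCNG1 nor MDM2 passed the test. CCNG1, cyclin G1, stood at 208.3 and 175.2 CPM with Cas9 and at 97.6 and 168.3 with dCas9 (log2 change 0.53 ± 0.20 SE, adjusted p = 0.292). With GC offsets the mRNA change of CCNG1 was 0.36 on the log2 scale and it passed (adjusted p = 0.0164), so that scaling changes its call. It also passed without dCas9 replicate b (adjusted p = 0.0061) and with the replicate block (adjusted p = 0.00588), but with GC offsets and without dCas9 replicate a it did not (adjusted p = 0.152), and adjusted p ran from 3.539e-06 to 1 over all settings. MDM2, a ubiquitin ligase, stood at 132.5 and 136.0 against 102.7 and 139.3, so its groups overlapped.

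Protein folding and turnover gave scattered decreases. HSPA5, the main chaperone of the endoplasmic reticulum, stood at 118.2 and 139.1 CPM with Cas9 and at 197.6 and 285.8 with dCas9 (adjusted p = 0.0271). It was the 1 decreased gene of 24 in its list (4.167% against 2.1% of all genes). HSP90AA1 stood at 1118 and 1189 against 1447 and 2038 and fell, as did PFDN2, 2 of 69 cytosolic chaperones (2.899%). PSMC5, an ATPase of the proteasome base, fell 1.89-fold, the 1 decreased of 34 proteasome genes (2.941%), whose median was 0.12. UBE2B and UBE2K, ubiquitin-conjugating enzymes, fell from 17.2 and 22.3 to 9.87 and 12.3 CPM and from 33.97 and 44.8 to 19.0 and 25.9. They were the 2 decreased of 32 in their list (6.25% against 2.1% of all genes).

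In the cytoskeleton and membrane traffic, MYH9, a non-muscle myosin, stood at 223.4 and 259.2 CPM with Cas9 and at 369.3 and 373.2 with dCas9 (adjusted p = 0.0360). ARHGDIA, an inhibitor of GDP dissociation from small GTPases, stood at 83.6 and 87.1 against 155.8 and 148.3. RAB7A, of late endosomes, and RAB11B, of recycling endosomes, fell by 0.90 and 0.70 on the log2 scale, and ATP6V0C, the proton-pump rotor, by 0.86. The lists of actins and actin-binding proteins, Rab GTPases and proton-pump subunits had 2 of 39 (5.128%), 3 of 52 (5.769%) and 1 of 19 (5.263%) decreased genes, against 2.1% of all genes. FTH1, the ferritin heavy chain, was the 1 of 25 oxidative stress genes that fell (4%). KLF6 was the 1 of 24 immediate early genes that fell (4.167%), both again against 2.1%. GAPDH stood at 3202 and 3096 against 3020 and 2740 CPM (log2 change 0.13 ± 0.10 SE, adjusted p = 0.586).

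**Figure D2:**
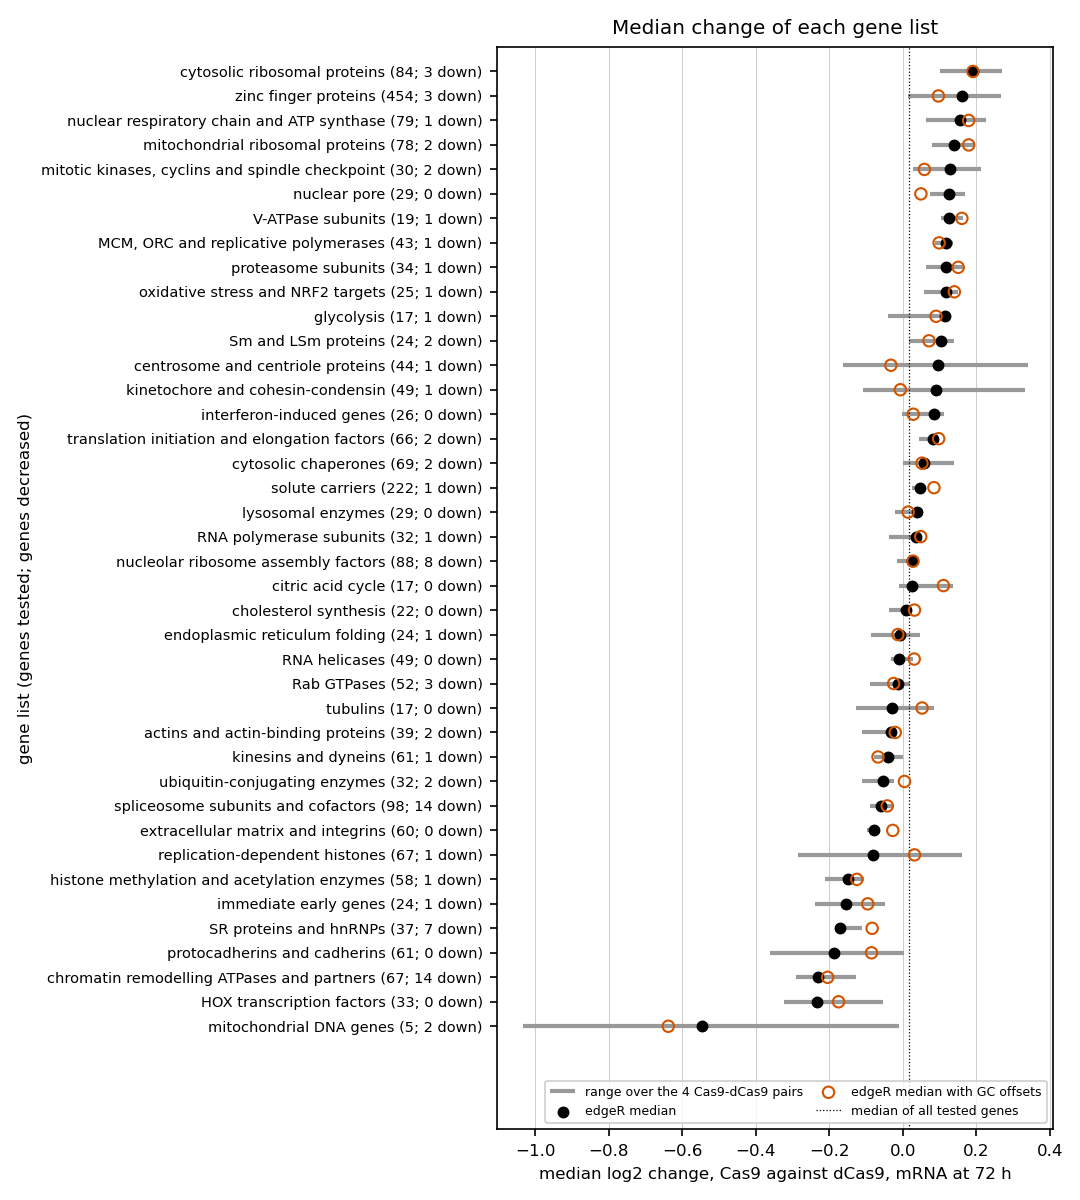
The plot of gene lists gives the median log2 change of Cas9 against dCas9 on the x axis, with black dots for the main fit, grey bars for the range over the 4 single pairs of libraries, orange rings for GC offsets and a dotted line for all tested genes at 0.018. Cytosolic ribosomal proteins stand highest at 0.19, and mitochondrial DNA genes and HOX factors lowest at -0.55 and -0.23.

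Outside the 42 lists lay 192 of the 277 decreased genes, so most have no group here. The decreased genes had a median coding GC of 56.44% against 52.22% over all tested genes, a median coding length of 1690 nt against 1431 nt, and a shorter median 3′ untranslated region (881.5 nt against 1152 nt). With genes ordered by coding GC into 10 bins of like size, 1 of 1310 fell in the lowest bin (32.6% to 41.3%). In bin 7 (55.3% to 58.2%) 63 fell, so the shares were 0.0763% and 4.81% against 2.1% of all genes. With GC offsets, 130 genes of the lowest bin and 165 of bin 7 were lower, so this contrast depended on the scaling. In the main fit, the 5 decreased genes of coding GC below 43% were UBE2B, UBE2K, NSRP1, SMNDC1 and RAB14.

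Across all genes, the change fell with coding GC, from a median of 0.23 in the lowest bin to -0.086 in bin 7 and -0.034 in the highest. The rank correlation over 13097 genes was -0.38, and genes of a library share its depth and preparation. Among the 4 libraries of 72 h, this trend rested on dCas9 replicate a. Against that library the correlation was -0.57 for Cas9 a and -0.67 for Cas9 b, and against dCas9 b it was 0.029 and 0.12, while the dCas9 replicates correlated with GC at 0.77 when set against each other. In the lowest bin the median deviation of dCas9 a from the 4-library mean was -0.37, and those of the other libraries were between 0.033 and 0.21. The difference between the highest and the lowest bin was -0.27 over all libraries and 0.099 without dCas9 replicate a. GC offsets, which subtract a smooth trend on coding GC from each library, brought the correlation to 0.015. At 36 h the mRNA change had a correlation with coding GC of -0.18, and footprints of 72 h had one of 0.078.

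The change also fell with coding length, and this held against either dCas9 replicate. Medians over 10 bins of length went from 0.086 in the shortest (75 to 534 nt) to -0.11 in the longest (3555 to 26769 nt), with a rank correlation of -0.19. Single pairs gave differences between these bins of -0.17 and -0.079 against dCas9 a and of -0.31 and -0.24 against dCas9 b. Within each of 5 bins of coding GC the longest 20% of genes lay below the shortest, for example 0.13 against 0.24 at the lowest GC and -0.22 against 0.0075 in bin 4. With GC offsets, 221 genes of the shortest bin were higher and 99 lower, and 6 of the longest were higher and 326 lower. At 36 h the mRNA change had a correlation with length of 0.15, on the other side of 0, and footprints of 72 h had one of -0.0087.

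**Figure D3:**
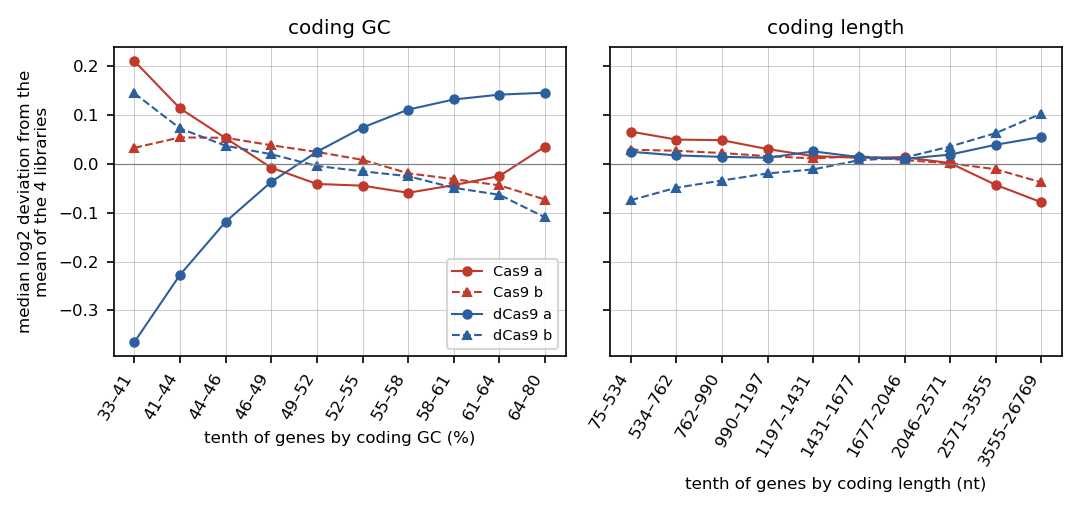
The plot of base composition and length gives, for 10 bins of genes ordered by coding GC (left) or coding length (right), the median log2 deviation of each library from the mean of the 4, with red for Cas9, blue for dCas9, and solid lines for replicate a. On the left dCas9 replicate a runs from -0.37 to 0.15 apart from the other libraries, and on the right both Cas9 lines end below both dCas9 lines in the longest bin.

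The decreased genes were then read in footprints of 72 h and in mRNA of 36 h, which share no library with this comparison. Of 275 with footprints at 72 h, 131 were lower and 144 higher with Cas9 (47.64% lower against 49.47% of all genes), and their median footprint change was 0.0048. The middle 80% of them lay between -0.15 and 0.18, and of 2 that passed the footprint test (0.0367% of genes), MT-CO2 and MT-ATP6, both were higher. At 36 h, 140 of 272 were lower in mRNA with a median of -0.0050, and no gene of the 277 passed the test there, where 0.0078% of genes did. The remaining values use the mRNA libraries of 72 h that gave the calls, so they are a description of the decreased genes and no separate reading of them. The difference between the changes at 72 h and 36 h passed its own test for 59 of 12635 genes (0.467%), 58 lower at 72 h (0.459%) and 1 higher (0.00791%), and the 58 were all among the 272, an overlap that the shared libraries largely build in. Level by level, 188 of 272 stood lower in the dCas9 libraries of 72 h than in those of 36 h (69.12% against 52.63% of all genes), across tables that were normalised separately.

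**Figure D4:**
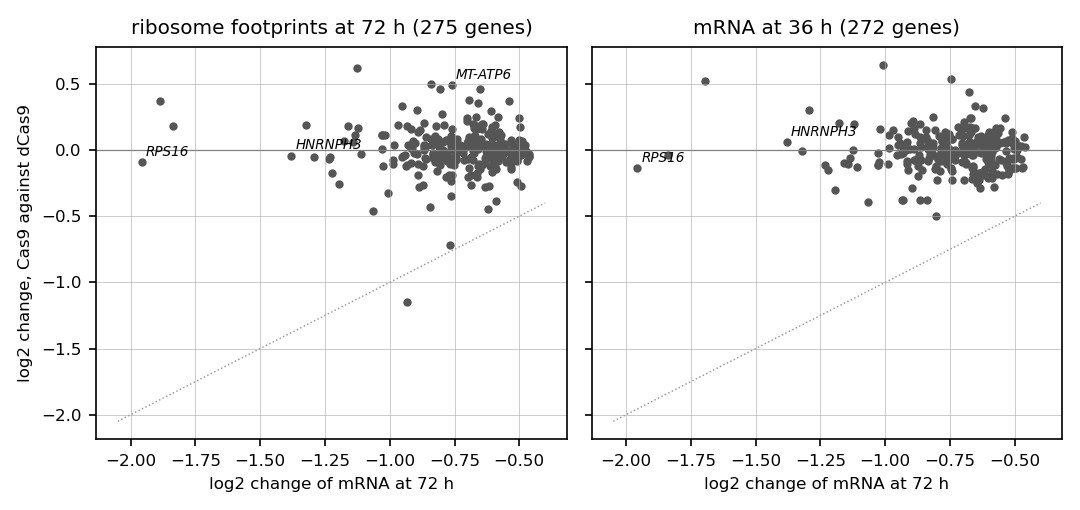
The plot of other readouts sets the log2 mRNA change at 72 h of each decreased gene (x axis) against its log2 change in footprints at 72 h (left, 275 genes) or in mRNA at 36 h (right, 272 genes), and the dotted line marks equal change. The genes centre on 0 on the y axis, with medians of 0.0048 and -0.0050, and RPS16 at -1.96 in mRNA stands at -0.089 in footprints.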

How the data were processed

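RNA from HEK293 cells was depleted of ribosomal RNA and sequenced with a stranded kit. According to the methods, the authors aligned the 72 h reads with tophat to GRCh38.p7 (GENCODE release 25), whereas the labels name HISAT2 2.1.0 and GRCh38 for every sample, and counted reads per transcript with fp-count. The deposited values are counts over the inner part of each coding sequence, without normalization, and a read counts on every transcript that it fits. Genes with near-identical copies are therefore uncertain.

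Transcripts were matched by identifier to GENCODE release 44 on hg38 (94.7% of those with a coding part, 95.8% of counts), and the transcript with the highest summed count stood for its gene. Coordinates, coding GC and length come from that release and were lacking for 78 tested genes. Genes needed a mean count of 20. The 4 libraries were fitted alone in edgeR 4.0.16 (R 4.3.3) with TMM scaling, the quasi-likelihood test and Benjamini-Hochberg adjustment at 0.1, and the methods' DESeq2 (version 1.42.0 here) was an alternative. Values for single pairs of libraries used a prior count of 2. Footprints of 72 h and mRNA of 36 h were fitted likewise, and the difference between time points in 1 model over both mRNA sets. GC offsets subtracted a spline of each library's log2 deviation on coding GC. The scripts were tested on simulated data.

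The comparison and the gene lists were chosen with earlier results of these data known, and the 3 lists named in the report as made later were added after these values had been seen. The text names, in part, the 10 genes of smallest adjusted p in each direction that changed alike in all 4 pairs, up to 2 genes a list and direction past 0.1, and genes the study followed. Members of the 3 later lists, NEFM, RPL28, MT-ND5, HNRNPM, HNRNPA2B1, HNRNPA1, HNRNPA1L2, NSRP1, SMNDC1, RAB14 and NTS were chosen after their values were seen. Some items are not reported here.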

Additional observations from a re-analysis of the deposited data

Results flagged for a closer look

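The mRNA change differed between 72 h and 36 h by its own test for 59 of 12635 genes (0.467%, edgeR with an interaction term, adjusted p under 0.1), and 58 of them were lower at 72 h. All 58 were among the 272 decreased genes measured at both times. This contrast contains the 4 libraries that gave those calls and 1 of 12824 genes passed at 36 h, so genes lower in it had to come largely from the decreased ones. The time points also differ in guide, annotation and library number and, by the study's methods, in aligner, although the labels name HISAT2 for every sample. None of these can be told apart from time. The count was 1 or 2 when any of the 36 h Cas9 libraries a, b or c, 36 h dCas9 replicate e or 72 h Cas9 replicate a was left out, 126 without 72 h Cas9 replicate b, 147 without 72 h dCas9 replicate a and 563 without 36 h dCas9 replicate d. 

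Among ribosomal and translation genes, the change at 72 h minus that at 36 h on the log2 scale was -1.84 for RPS16, -1.0005 for RPL28, -0.62 for RPLP1, -1.14 for MRPL12, -0.97 for CCDC124, -0.94 for EIF3C and -0.96 for EIF3CL. For genes of splicing it was -1.46 for HNRNPH3, -1.33 for LSM10, -1.11 for HNRNPA2B1, -0.95 for HNRNPA0, -0.93 for HNRNPM and for U2AF1, -0.90 for SNRPA1, -0.73 for PRPF8 and -0.69 for SF3A1. Chromatin and nucleolar genes gave -0.87 for BRD3, -0.86 for NCL, -0.82 for ARID1A and -0.76 for EP400. Genes of division and replication gave -1.01 for RPA1 and -0.75 for MKI67. In metabolism, folding and traffic it was -1.09 for SEPHS2, -1.07 for HSPA5, -1.05 for NUDC, -1.02 for SDHC, -0.95 for TRAPPC1, -0.93 for RAB7A and for MT-CO2, -0.92 for FTH1, -0.85 for PSMC5 and -0.79 for ARHGDIA. The 1 gene on the other side was NTS, the neuropeptide neurotensin, at 6.79, whose change was 0.55 at 72 h and -6.20 at 36 h, with levels of at most 3.41 CPM at 36 h.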

How the results depend on the processing

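Precision is limited by 2 libraries a group. Of 279 calls, 263 remained with DESeq2 (328 calls, 3 higher), 256 with length offsets (348 calls, 7 higher) and 149 with median-ratio size factors (149 calls, 0 higher, all 149 lower). RPL9 was not among the 3 higher with DESeq2, where 0 of 84 cytosolic ribosomal protein genes passed as higher. Those 3 included 1 proteasome gene. Calls were 511 without a count minimum (12 higher, 499 lower), 614 with both library types together (46 higher, 568 lower), and 96 at a false discovery rate of 0.05 (0 higher, 96 lower, with 531 higher at an unadjusted p under 0.05). The letters a and b are not said to pair the libraries, and same-letter deviations correlated at -0.10. The replicate block gave 755 calls (157 higher, 598 lower), and the crossed pairing, chosen after seeing the data, gave 812 (180 higher, 632 lower).

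GC offsets gave 2587 calls (1156 higher, 1431 lower) and with the replicate block 3681 (1843 higher, 1838 lower). With GC offsets and 1 library left out, also chosen after seeing the data, calls were 1182 without Cas9 a (359 higher, 823 lower), 3514 without Cas9 b (1734 higher, 1780 lower), 1856 without dCas9 a (653 higher, 1203 lower) and 1287 without dCas9 b (480 higher, 807 lower). Without GC offsets, leaving out 1 library gave 6 to 3089 calls, 0 to 1852 higher and 6 to 1237 lower. The GC difference ranged from -0.64 to 0.099 and the length difference from -0.27 to -0.12 over the same omissions. Length offsets, by construction, brought the length difference to -0.051.

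The count of genes that differ between time points was 212 with DESeq2, 232 with GC offsets and 1 to 563 with 1 library left out. All 279 calls kept their direction under every setting that tested them. Of the other named genes, 3 changed sign. With 1 library left out, JAK2 ranged from -0.54 to 0.19 (the latter without dCas9 b), MT-ND5 from -0.38 to 0.10 (0.021 without Cas9 a, 0.10 without dCas9 b) and MDM2 from -0.053 (without dCas9 a) to 0.39. With GC offsets MDM2 was at -0.031, and under those offsets at -0.032 with the block, -0.12 without Cas9 b, -0.015 without dCas9 a and -0.047 without dCas9 b. The causes were not tested.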

Other observations

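HK2, the hexokinase that starts glycolysis, stood at 27.3 and 36.0 CPM with Cas9 and at 47.2 and 54.8 with dCas9. It was the 1 of 17 glycolysis genes that fell (5.882%), where 2.1% of all genes fell. H4C8, one of many near-identical histone H4 genes and so uncertain, was the 1 of 67 replication-dependent histones that fell (1.493%). The median of that list ran from -0.29 to 0.16 over single pairs of libraries. ZNF618 was 1 of 3 decreased zinc finger genes of 454 (0.6608%). KIF18B, a mitotic kinesin, was the 1 of 61 kinesins and dyneins that fell (1.639%), and POLR3K the 1 of 32 RNA polymerase subunits (3.125%). 

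No gene passed edgeR's test in the lists of the citric acid cycle (17 tested, 2 at an unadjusted p under 0.05), cholesterol synthesis (22 and 3), RNA helicases (49, with 4 lower and 2 higher at that p), the nuclear pore (29, with 3 lower and 4 higher), tubulins (17 and 1), lysosomal enzymes (29, with 3 lower and 1 higher), extracellular matrix and integrins (60 and 4) and interferon-induced genes (26 and 2). DESeq2 called 1 gene lower in the nuclear pore list and 1 in the interferon list, and 0 in the other 6. The medians of these 8 lists lay between -0.078 and 0.13.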
